A study of Mus musculus with 5 samples.

Results

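Peaks of acetylated histones near 8 genes for transcription factors of effector CD8+ T cells were described in 5 ChIPseq libraries: *Tbx21*, *Id2*, *Prdm1*, *Zeb2*, *Stat4*, *Bhlhe40*, *Tox* and *Hopx*. The genes were taken as a list of names, 8 of 21938 protein-coding genes. Every peak that touched a gene body or the 30 kb on either side of it was kept. That gave 66 peaks, which merged into 30 sites where peaks of any library shared at least 1 bp, out of 18410 merged regions in the genome. The cells were T memory (TM) cells of the mouse, made in vitro from OT-I CD8+ T cells that were activated with ovalbumin peptide and then cultured with IL-15. There were 2 libraries of wildtype (WT) cells and 3 of TPdh-/- cells, which the deposited labels name PDH_Mutant. TPdh-/- cells carried floxed *Pdha1*, the gene for the E1 alpha subunit of pyruvate dehydrogenase, and a Cre driven by the *Cd4* promoter, so the deletion was made in developing T cells and not in the memory stage alone. The study used adult mice of both sexes. The antibody was raised against acetyl-lysine of histones, and the labels describe it as directed at acetylated K18. The study's methods say that measurements came from discrete samples, but do not state for ChIPseq whether these were separate mice, so the spread given here may be technical. The libraries analysed here are fewer per condition than the study gives for ChIPseq. A peak list has no reading of the deleted exon and cannot check the genotype.

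Histone acetylation marks promoters and enhancers that are accessible or in use, and the acetyl groups come from acetyl-CoA, which pyruvate dehydrogenase makes from pyruvate. The 8 genes encode regulators of the effector side of CD8+ T cell differentiation. T-bet, the product of *Tbx21*, STAT4, which carries the IL-12 signal, BLIMP-1 of *Prdm1*, ZEB2 and ID2 are known for driving cytotoxic and terminally differentiated effector cells. BHLHE40 is a repressor induced by activation, TOX is an HMG box factor known for exhausted T cells, and HOPX is a homeodomain protein that does not bind DNA itself.

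Only 1 of the 30 sites had a peak in all 5 libraries, and it lay in front of *Bhlhe40*. Of all regions near coding genes, 18.4% had a peak in all 5. Sequence is shown for 5 genes, from the most widely shared site of each that had peaks in at least 3 libraries. The site also needed a stretch of 300 bases common to those libraries that held no exon of a coding gene. Exons of noncoding genes were not checked, and the bodies of the noncoding genes *0610040F04Rik* and *Gm17055* lie over the *Bhlhe40* site. *Hopx* was not among the 5 genes chosen for this, so its site with peaks in 3 libraries, at the start of a noncoding gene, is not shown. Each stretch is the plus strand of GRCm38, taken nearest to the middle of the shared part, and capitals mark letters of the motifs described after it. At *Bhlhe40* (chr6:108659297-108659596, 5 libraries) the stretch lay in front of the gene, held 31 CpG dinucleotides, had a GC content of 68.7% and held 1 match of CACGTG, the E-box that BHLHE40 binds. At *Stat4* (chr1:52008912-52009211, 4 libraries) it lay just after the first exon of a shorter transcript and held a STAT motif. At *Prdm1* (chr10:44447717-44448016, 4 libraries), *Tbx21* (chr11:97127289-97127588, 3 libraries) and *Tox* (chr4:6989964-6990263, 3 libraries) the stretches held none of the 4 motifs searched. They held 4, 13 and 21 CpG dinucleotides, respectively.
Bhlhe40: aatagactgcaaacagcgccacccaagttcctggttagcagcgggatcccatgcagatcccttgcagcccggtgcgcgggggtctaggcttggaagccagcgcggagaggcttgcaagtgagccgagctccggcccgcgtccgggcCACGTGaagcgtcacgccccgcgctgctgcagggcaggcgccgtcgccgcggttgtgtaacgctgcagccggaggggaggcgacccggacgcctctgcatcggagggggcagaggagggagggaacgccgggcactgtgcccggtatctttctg
Stat4: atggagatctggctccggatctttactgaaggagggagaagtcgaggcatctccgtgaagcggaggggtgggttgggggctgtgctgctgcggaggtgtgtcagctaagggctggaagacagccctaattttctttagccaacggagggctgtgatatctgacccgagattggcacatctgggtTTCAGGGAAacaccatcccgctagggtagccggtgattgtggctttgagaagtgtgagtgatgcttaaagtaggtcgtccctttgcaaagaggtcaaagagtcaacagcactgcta
Prdm1: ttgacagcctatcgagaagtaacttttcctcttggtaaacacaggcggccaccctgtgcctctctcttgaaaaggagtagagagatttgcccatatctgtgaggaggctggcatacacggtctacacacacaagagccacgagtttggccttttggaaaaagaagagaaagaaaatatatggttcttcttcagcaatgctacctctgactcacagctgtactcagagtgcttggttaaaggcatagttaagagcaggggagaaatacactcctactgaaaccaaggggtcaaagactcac
Tbx21: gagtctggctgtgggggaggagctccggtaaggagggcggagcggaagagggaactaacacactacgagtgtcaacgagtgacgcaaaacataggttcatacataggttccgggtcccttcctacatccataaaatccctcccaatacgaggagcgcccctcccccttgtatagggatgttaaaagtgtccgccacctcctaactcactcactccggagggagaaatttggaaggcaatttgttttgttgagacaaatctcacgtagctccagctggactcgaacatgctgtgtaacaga
Tox: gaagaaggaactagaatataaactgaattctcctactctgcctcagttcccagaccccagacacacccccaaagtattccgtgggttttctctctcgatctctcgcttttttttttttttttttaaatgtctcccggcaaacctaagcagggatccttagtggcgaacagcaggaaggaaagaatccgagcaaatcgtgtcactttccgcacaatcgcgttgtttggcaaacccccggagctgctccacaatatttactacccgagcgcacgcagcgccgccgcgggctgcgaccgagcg

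The motifs were the T-box motif AGGTGTGA, the E-box CAGGTG of ZEB factors, the E-box CACGTG of BHLHE40 and the STAT motif TTCNNNGAA, searched on both strands. CACGTG and TTCNNNGAA read the same on either strand, and the T-box letters with a C in front also hold the ZEB letters. Over the middle 300 bases of each of the 30 merged sites, CAGGTG was found in 4 sites (13.3%, against 18.9% of all 18410 regions) and TTCNNNGAA in 4 (13.3%, against 9.79%). AGGTGTGA and CACGTG were found in 0 of the 30, against 1.29% and 5.38% of all regions. The middle of the merged *Bhlhe40* site is a different window from the stretch printed for it, which is why the printed match is not in that count. Annotated promoters of 300 bases were given by RefSeq for 6 of the 8 genes, 11 windows in all, and not for *Bhlhe40* and *Tox*. CAGGTG was found in 4 of those windows (of *Prdm1*, *Stat4* and *Tbx21*, against 20.2% of 32851 promoters), CACGTG in 1 (of *Hopx*, against 7.15%), TTCNNNGAA in 2 (both of *Zeb2*, against 8.30%) and AGGTGTGA in 0 (against 1.28%). The counts are small, and a match of letters is not a bound site.

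The 5 lists differed in length, and this touches every count that follows. WT 1 held 15962 peaks and WT 2 held 8859, while TPdh-/- 1, 2 and 3 held 4920, 5419 and 9418. Each list gives, per peak, a fold enrichment over local background and a −log10 q, and no read numbers, so the depth is unknown and a peak that is not listed may lie below the threshold. Fewer cells with the mark and less mark per cell cannot be told apart. Promoter peaks of T cell markers were found in at least 1 library for 7 of 7 genes, with *Lck* in all 5, and *Cd8b1* also had one in all 5. *Cd8a* had one in WT 1 alone, and *Cd4* in both WT and no TPdh-/- library. Of the markers of other cells, 1 of 5 myeloid genes (*Spi1*, in all 5) and 0 of 2 NK cell genes had a promoter peak. The part of other cells in the values below was not tested.

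WT 1 held 28 peaks near the 8 genes, WT 2 held 12, TPdh-/- 1 and 2 held 6 each, and TPdh-/- 3 held 14. Per 1000 peaks of each list this was 1.75, 1.35, 1.22, 1.11 and 1.49. The libraries of the groups therefore overlapped in number, with WT 2 under TPdh-/- 3. Peaks covered 42.1 and 10.4 kb in WT 1 and 2, and 7.87, 6.09 and 18.1 kb in TPdh-/- 1 to 3. A peak was found near all 8 genes in WT 1, near 5 in WT 2 and near 5, 4 and 7 in TPdh-/- 1 to 3. The map of peaks shows how these fall along each gene.

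**Figure D1:**
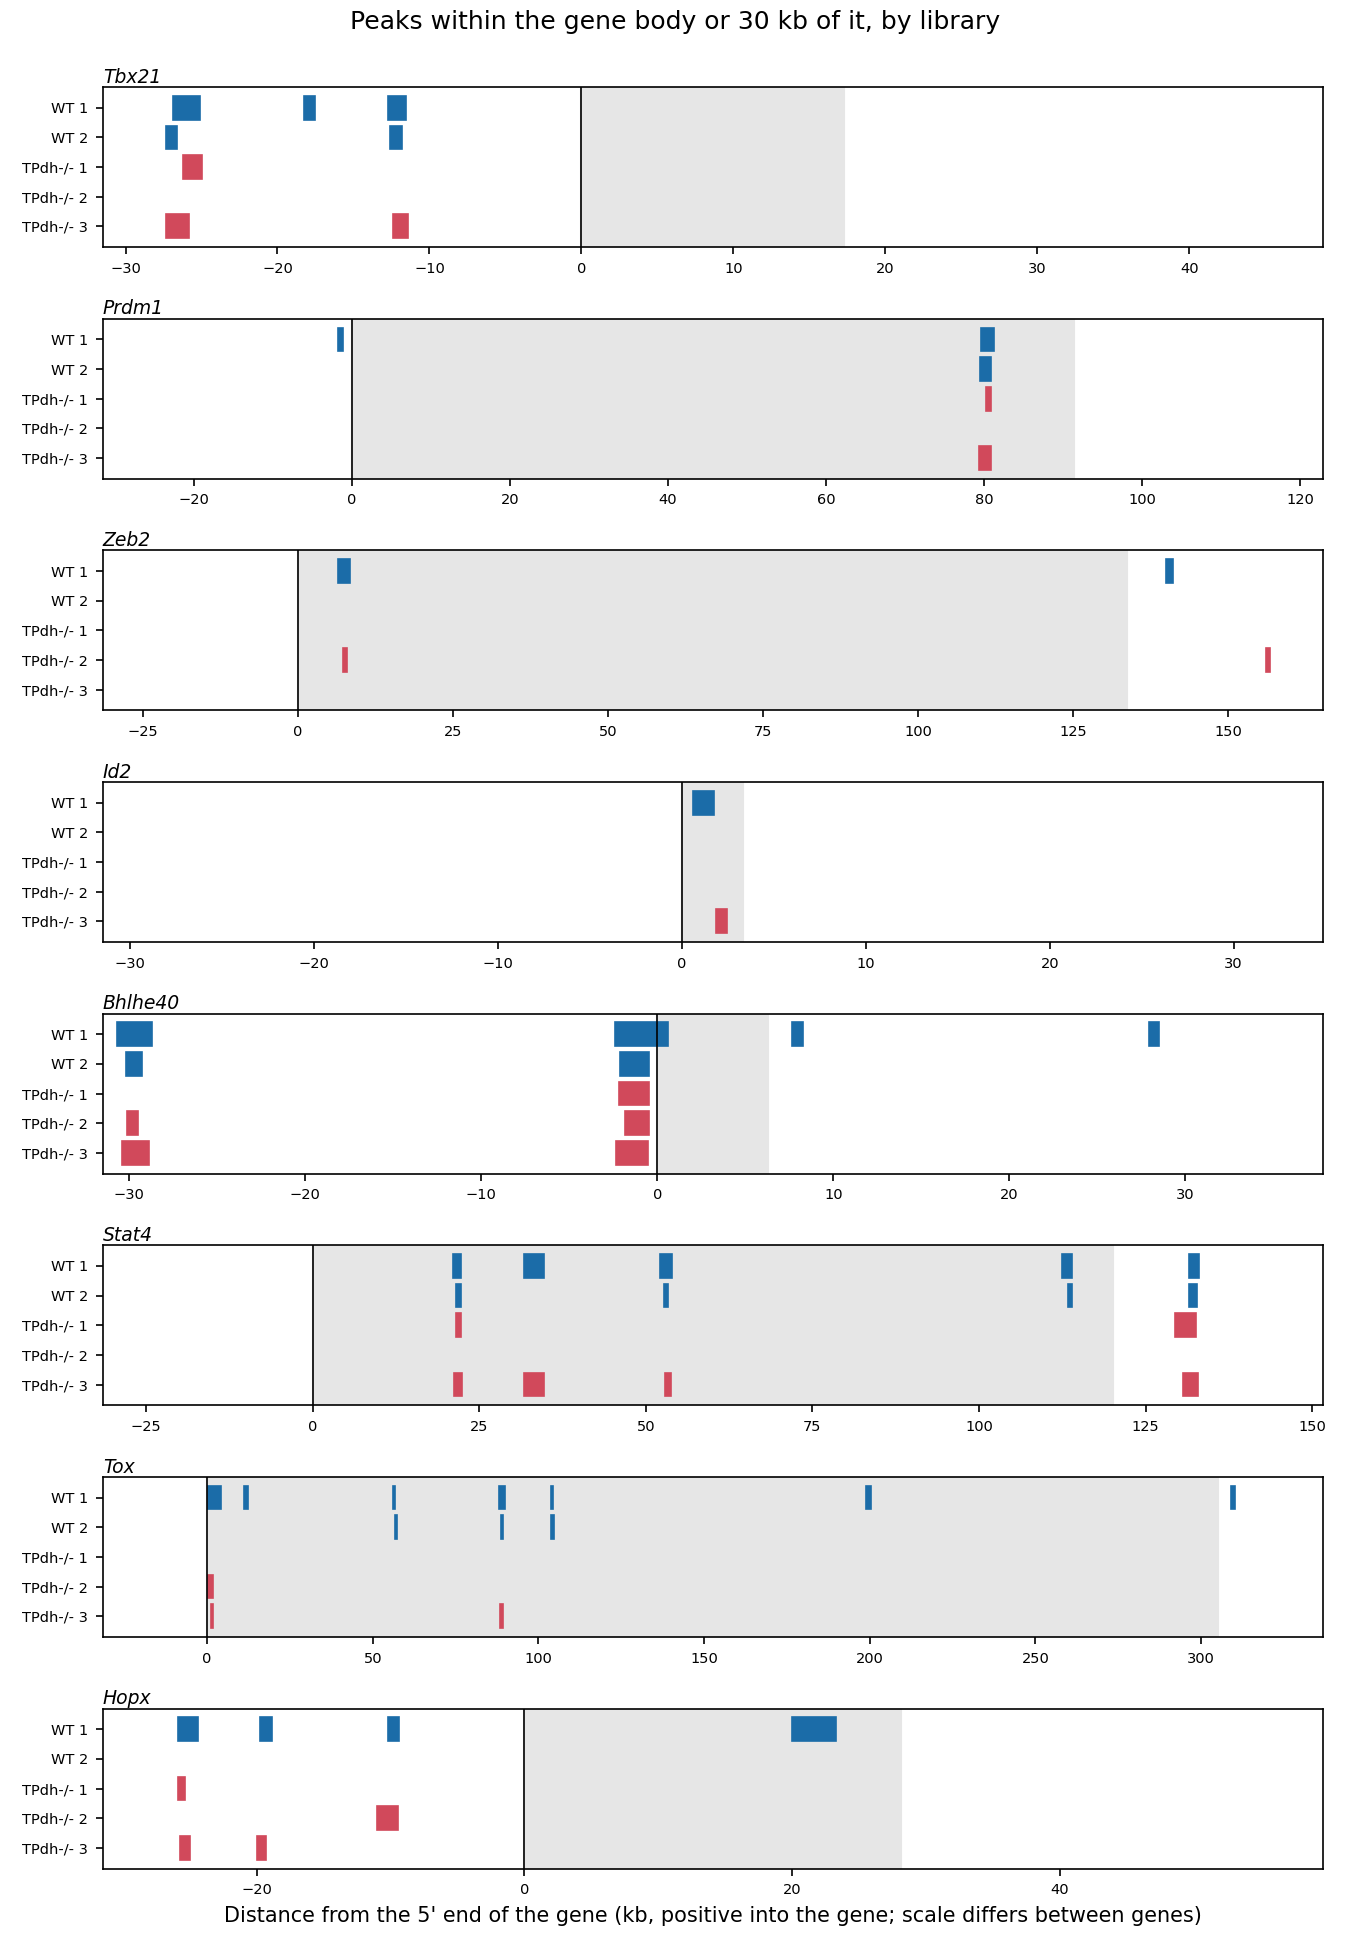
Peaks near each of the 8 genes, with distance from the 5′ end of the gene in kb on the x axis (positive into the gene, scale differing between genes) and a row for each library, WT in blue and TPdh-/- in red; the gene body is shaded. The site just in front of *Bhlhe40* is the only one with a peak in all 5 rows, and *Tbx21* has peaks upstream only.

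*Bhlhe40* carried the site that was kept in every library, at chr6:108658255-108661224 as merged. The gene (ENSMUSG00000030103) lies on the plus strand at chr6:108660629-108666925. The peak had a width of 2970 bp in WT 1 and 1608 bp in WT 2, and of 1696, 1382 and 1814 bp in the 3 TPdh-/- libraries. In WT 1 it reached from 2374 bp before the start of the gene to 595 bp after it, over exon 1 and into exon 2, whereas in the other 4 libraries it ended 447 to 538 bp before the start. Its fold enrichment was 1.92 in both WT libraries and 2.14, 2.13 and 2.02 in TPdh-/- 1 to 3. By −log10 q it ranked 6102 of 15962 in WT 1, 6323 of 8859 in WT 2, 2877 of 4920 in TPdh-/- 1, 2090 of 5419 in TPdh-/- 2 and 4526 of 9418 in TPdh-/- 3. Expressed as a percentile, the share of the peaks of that list with the same or a lower −log10 q, these ranks were 61.8, 28.6, 41.5, 61.5 and 52.0. By −log10 q the groups thus overlapped, between percentiles 28.6 and 61.8. By fold the site stood low in every list, at percentiles 4.62 to 10.8. Both WT folds were below those of the 3 TPdh-/- libraries, while the percentiles by fold overlapped. By width it stood high, at percentiles 83.4 to 98.2. The starts of a divergent antisense gene, *0610040F04Rik*, and of the noncoding gene *Gm17055* lay within 3000 bp of the site, so the acetylation cannot be given to *Bhlhe40* alone.

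Another *Bhlhe40* site, inside the body of *0610040F04Rik* at 28.7 to 30.7 kb upstream and so at the edge of the window, had peaks in 4 libraries. These were of 1993 bp in WT 1, 943 bp in WT 2, 585 bp in TPdh-/- 2 and 1523 bp in TPdh-/- 3, with folds of 2.04, 2.16, 2.21 and 2.34. Their percentiles were 26.8, 0.926, 2.36 and 29.8, so that 2 of the 4 stood at the very bottom of their lists. A pair of narrow downstream peaks, of 609 bp at 7.6 kb and 556 bp at 27.9 kb after the start, was found in WT 1 alone.

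Among the 2390 coding genes with a promoter peak in all 5 lists, the one whose percentiles were closest to those of *Bhlhe40* was *Odc1*, for ornithine decarboxylase. Its promoter peaks stood at percentiles 58.9, 33.7, 41.4, 61.0 and 62.8 in WT 1, WT 2 and TPdh-/- 1 to 3. The mean absolute difference from *Bhlhe40* was 3.90 percentile points over the 5 lists.

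*Tbx21* (ENSMUSG00000001444, minus strand, chr11:97098071-97115331) had no peak at its promoter or over its gene body in any library, the only one of the 8 genes without a promoter peak. A promoter peak was found in no library for 56.7% of coding genes. All *Tbx21* peaks lay upstream. The strongest was at 11.4 to 12.7 kb before the start, where WT 1 had a peak of 1155 bp with fold 2.21 and −log10 q 7.36, WT 2 one of 826 bp with fold 2.00 and −log10 q 1.88, and TPdh-/- 3 one of 996 bp with fold 2.13 and −log10 q 3.96. Their ranks were 3354, 7043 and 3922, at percentiles 79.0, 20.5 and 58.4, and the WT 1 peak was the highest placed of all 66. At this site the 2 WT peaks stood on either side of the TPdh-/- peak. TPdh-/- 1 and 2 had no peak there.

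Farther up, at 25.0 to 27.4 kb and inside the neighbouring gene *Tbkbp1*, *Tbx21* had a site with peaks in 4 libraries. The site lay within the first exon of a predicted RefSeq transcript of *Tbkbp1*, so its acetylation cannot be given to *Tbx21* alone. The peaks were 1764 bp wide in WT 1, 718 bp in WT 2, 1256 bp in TPdh-/- 1 and 1499 bp in TPdh-/- 3, with folds of 1.70, 1.74, 1.94 and 1.91 and percentiles of 34.7, 4.19, 8.88 and 45.0. The 4 peaks chained into 1 site, but no base was common to all of them. A peak of 700 bp at 17.5 to 18.2 kb upstream was found in WT 1 only. TPdh-/- 2 held no peak near *Tbx21*.

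*Stat4* (ENSMUSG00000062939, plus strand, chr1:51987148-52107189) had 5 sites, none of them at the 5′ end of the gene, and 4 of them are described here. The most shared of these lay 21.1 to 22.4 kb into the gene, at the start of a shorter transcript. The peak there was 1186 bp wide with fold 1.81 in WT 1, 763 bp with fold 2.07 in WT 2, 716 bp with fold 2.42 in TPdh-/- 1 and 1254 bp with fold 1.94 in TPdh-/- 3. At ranks of 7856, 4567, 1720 and 5753, the percentiles were 50.8, 48.5, 65.1 and 38.9. The TPdh-/- libraries thus held both the highest and the lowest place. This is the site whose shared stretch is printed with the motif TTCAGGGAA.

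An intronic *Stat4* site at 52.1 to 53.9 kb was found in both WT libraries and TPdh-/- 3, with folds of 2.16, 2.18 and 2.23 and percentiles of 51.0, 31.8 and 38.6. A wide intronic site at 31.7 to 34.8 kb was found in WT 1 (3076 bp, fold 1.67, the lowest of the 66) and TPdh-/- 3 (2861 bp, fold 2.04). A site at 112.5 to 114.0 kb, where the WT 1 peak lay over an exon and the WT 2 peak in the intron beside it, was found in both WT libraries and no TPdh-/- library, but its percentiles, 0.633 in WT 1 and 3.98 in WT 2, were close to the threshold of the lists. TPdh-/- 2 held no peak near *Stat4*.

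*Prdm1* (ENSMUSG00000038151, minus strand, chr10:44437177-44528501) had 2 sites. The promoter site, 1.0 to 1.7 kb in front of the 5′ end, was called in WT 1 alone, 641 bp wide and at rank 6353. Its fold of 2.84 was the highest of the 66 peaks. The second site, 79.4 to 81.3 kb into the gene, lay in an intron of the GENCODE annotation, over the first exon of a predicted RefSeq transcript of *Prdm1*. There WT 1 had a peak of 1692 bp with fold 2.01, WT 2 of 1320 bp with fold 2.19, TPdh-/- 1 of 573 bp with fold 2.47 and TPdh-/- 3 of 1549 bp with fold 2.16. The percentiles were 47.7, 30.7, 52.1 and 40.0, again with no separation of the groups, and TPdh-/- 2 had none.

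*Zeb2* (ENSMUSG00000026872, minus strand, chr2:44983632-45117395) had peaks in only 2 libraries. At 6.4 to 8.4 kb into the gene, at starts of shorter transcripts and of the antisense gene *Zeb2os*, WT 1 had a peak of 1937 bp with fold 2.13 and TPdh-/- 2 one of 642 bp with fold 2.49, at percentiles 6.67 and 27.7. Single peaks downstream of the gene were found in WT 1 at 140.0 kb (1179 bp, fold 1.87) and in TPdh-/- 2 at 156.1 kb (619 bp, fold 2.25) from the start. No *Zeb2* peak stood in the upper part of its list.

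*Id2* (ENSMUSG00000020644, minus strand, chr12:25093799-25097140), an inhibitor of E proteins, is the shortest of the 8 genes at 3.34 kb, and 2 libraries had a peak, both within the gene. The WT 1 peak, at chr12:25095420-25096523, was 1104 bp wide with fold 1.85, at rank 11279 and percentile 29.3. The TPdh-/- 3 peak, at chr12:25094660-25095259, was 600 bp wide with fold 2.11, at rank 6709 and percentile 28.8. These 2 peaks did not overlap each other and were counted as separate sites.

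*Tox* (ENSMUSG00000041272, minus strand, chr4:6686353-6991557), the longest of the 8 genes at 305 kb, had the most sites, 7. Its promoter site carried a peak of 3893 bp in WT 1, the widest of the 66, with fold 1.95 and percentile 29.9. TPdh-/- 2 had a peak of 1365 bp there, with fold 2.26 and percentile 36.3, and TPdh-/- 3 one of 696 bp with fold 1.96 and percentile 15.6. WT 2 and TPdh-/- 1 had none, so each group held libraries with and without it.

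The intronic *Tox* site with the highest place lay 88.1 to 89.9 kb into the gene. Its peak was 1825 bp wide with fold 2.47 in WT 1, 608 bp with fold 2.39 in WT 2 and 1034 bp with fold 2.59 in TPdh-/- 3, at percentiles 59.8, 38.5 and 64.6. A pair of intronic sites was found in both WT libraries and no TPdh-/- library. At the first, 56.1 to 57.3 kb into the gene, the peaks were 649 bp wide in WT 1 and 605 bp in WT 2, at percentiles 15.7 and 30.2. The 2 peaks met only at their ends, and where at least 50% of the shorter peak had to be shared this site no longer counted. At the second, 103.8 to 104.7 kb, the peaks were 673 and 700 bp wide, at percentiles 37.8 and 1.23. Intronic peaks at 11.1 and 198.9 kb and a downstream peak at 309.0 kb were found in WT 1 alone. TPdh-/- 1 held no peak near *Tox*.

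*Hopx* (ENSMUSG00000059325, minus strand, chr5:77086988-77115121) had 4 sites, 3 of them upstream of the gene. The most shared of these lay 24.4 to 25.9 kb upstream at the start of the noncoding gene *Chaer1*. It had a peak of 1455 bp in WT 1, with fold 2.08, −log10 q 6.16 and percentile 71.5, one of 534 bp in TPdh-/- 1, with fold 2.49 and percentile 56.3, and one of 720 bp in TPdh-/- 3, with fold 1.91 and percentile 15.6. A site at 9.4 to 11.0 kb upstream, at the start of the noncoding gene *Gm15831*, was found in WT 1 and TPdh-/- 2 at percentiles 51.6 and 2.01. A site at 18.8 to 20.0 kb upstream was found in WT 1 and TPdh-/- 3 at percentiles 50.5 and 18.3. The start of a shorter *Hopx* transcript, 20.0 to 23.3 kb into the gene, carried a peak of 3304 bp in WT 1 alone. The antisense gene *Hopxos* ran over this site and started within 3000 bp of it, so the peak cannot be given to *Hopx* alone. WT 2 held no peak near *Hopx*.

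The peaks near the 8 genes were of low fold for their lists. Their median fold was 2.02 and 2.12 in WT 1 and 2 and 2.28, 2.25 and 2.03 in TPdh-/- 1 to 3, where the medians of the whole lists were 2.40, 2.54, 2.65, 2.58 and 2.48. Below the median of their list were 63 of the 66 (95.5%), with 26 of 28, 12 of 12, 6 of 6, 6 of 6 and 13 of 14 by library. Peaks away from promoters were of lower fold in the lists at large, with 71.6% to 75.2% of them below the median, against 33.8% to 37.5% of promoter peaks. Near the 8 genes the share was 46 of 48 for peaks away from a promoter of the gene itself and 17 of 18 for peaks at one. Several peaks of 1 site are the same place measured again, so these shares are a description of 30 sites.

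By width the peaks did not stand to one side, with 36 of 66 above the median width of their list. Widths ran from 534 to 3893 bp. By −log10 q, 48 of the 66 peaks stood under percentile 50, and 2 stood at or above 70. A −log10 q of at least 5 was reached by 3 peaks, all in WT 1, and 19 peaks had a value under 2. The median −log10 q of the whole lists was 3.99 and 3.16 in WT 1 and 2 and 2.59, 2.81 and 3.41 in TPdh-/- 1 to 3. The shares of all peaks past these 2 limits are not given here, so the counts are a description only. The medians of the percentiles were 36.2 and 29.4 in WT 1 and 2 and 46.8, 15.0 and 38.8 in TPdh-/- 1 to 3. The plot of percentiles shows every peak.

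**Figure D2:**
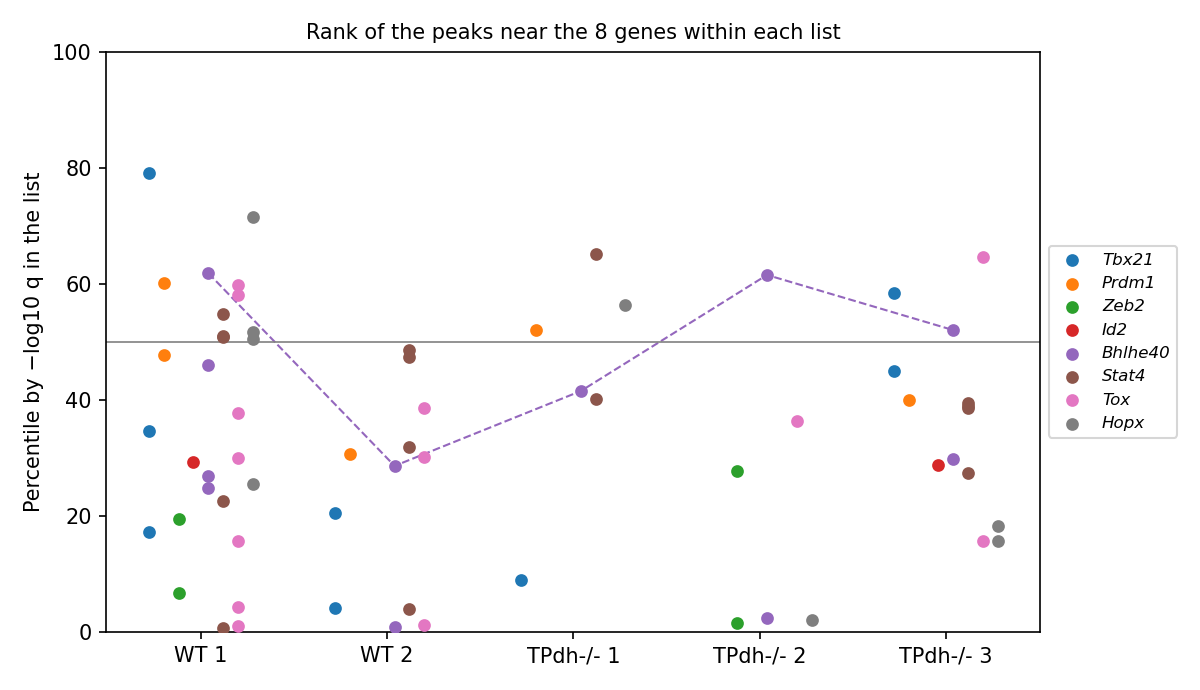
Place of each of the 66 peaks in its own list, as the percentile by −log10 q on the y axis, with a column of points for each library and a colour for each gene; the grey line is the middle of the list and the dashed line joins the kept *Bhlhe40* site. Of the 66 peaks, 48 lie under the line and the highest, of *Tbx21* in WT 1, is at 79.0.

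Few of the sites lay at the 5′ end of a member gene. By place, 5 sites were at a promoter of the gene, 3 at the promoter of a shorter transcript, 2 at the promoter of a noncoding gene, 1 partly over an exon, 8 in introns, 5 upstream and 5 downstream. Each of the 5 downstream sites was found in a single library. The median GC content of the 30 sites was 46.7%, against 49.9% for all regions, and the median ratio of observed to expected CpG was 0.272, against 0.302. The kept *Bhlhe40* site had the highest GC content of the 30, 62.2%, at percentile 89.7 of all regions, followed by the *Zeb2* site at the starts of shorter transcripts with 61.4%. Its CpG ratio of 0.582 was not the highest, as the same *Zeb2* site had 0.765, the *Prdm1* promoter site 0.656, the WT 1 site of *Id2* 0.639 and the *Tox* promoter site 0.586.

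Across libraries, 12 sites (40.0%) were found in 1 library, 7 (23.3%) in 2, 5 (16.7%) in 3, 5 (16.7%) in 4 and 1 (3.33%) in all 5. Of the 15318 regions near any coding gene, 38.6% were found in 1 library and 18.4% in all 5. Sites found in 1 library were thus about as frequent as in the background, while 1 of 30 was kept in every library. This background was not matched for place. In WT 1, 9720 of 15962 peaks lay at a promoter of any gene. Of the 30 sites, 5 lay at a promoter of a member, 3 at that of a shorter transcript and 2 at that of a noncoding gene. These counts leave out the *Stat4* site that is not reported here. They are of merged sites and the WT 1 count is of peaks, so the measures are not fully alike. The part of place in the sharing was not tested. WT 1 took part in 28 of the 30 sites, and 10 of the 12 found in a single library were its own. Without TPdh-/- 2, the shortest list but one, 5 sites were kept in all remaining libraries, and without TPdh-/- 1, 2 were. The plot of sharing sets these shares side by side.

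**Figure D3:**
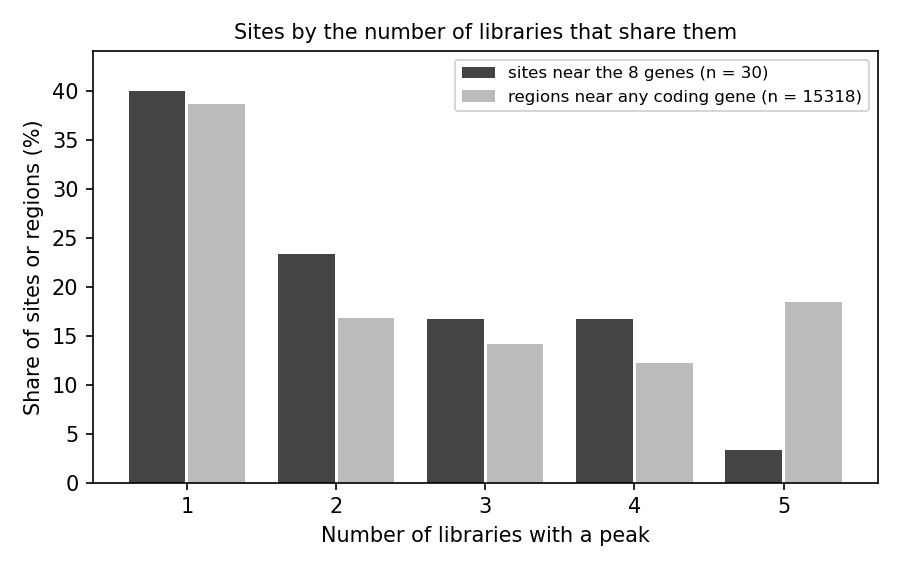
Share in percent (y axis) of the 30 sites near the 8 genes (dark bars) and of the 15318 regions near any coding gene (light bars) by the number of libraries that had a peak there (x axis). The bars are alike at 1 library, 40.0% and 38.6%, and differ at 5 libraries, 3.33% and 18.4%. The regions were not matched to the sites for place.

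By gene, *Bhlhe40* was the only member with a promoter peak in all 5 libraries, 1 of 8, where 10.9% of coding genes had one. It was also the only one with a peak anywhere in its window in all 5, against 26.3% of coding genes. Another 5 members had a peak in their window in 4 libraries, and *Zeb2* and *Id2* in 2. A promoter peak, that of any transcript of the gene, was found for 7 and 2 members in WT 1 and 2 and for 2, 3 and 4 in TPdh-/- 1 to 3, where the shares of all coding genes were 42.1%, 24.8%, 15.3%, 16.5% and 27.9%. WT 2 thus had as few as the lowest TPdh-/- library.

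The comparison of WT with TPdh-/- cells asked whether loss of pyruvate dehydrogenase went with a change in acetylation at these genes. WT libraries held 20.0 ± 11.3 (SD, n = 2) peaks near the 8 genes and TPdh-/- libraries 8.67 ± 4.62 (SD, n = 3), a difference of 1.20 in mean log2 number with a pooled SD of 0.76. The covered length was 26.2 ± 22.4 kb (SD, n = 2) and 10.7 ± 6.50 kb (SD, n = 3), a difference of 1.13 on the log2 scale with a pooled SD of 1.06. The number of members with a promoter peak was 4.50 ± 3.54 (SD, n = 2) and 3.00 ± 1.00 (SD, n = 3), a difference of 1.50 within the pooled SD of 2.2. These differences rested on WT 1: without it they were 0.59, 0.12 and, for promoters, −1.0. Without WT 2 they were 1.81, 2.14 and 4.0. With each list reduced to its 4920 strongest peaks, as many as the shortest list holds, all 3 turned to the other side, at −0.92, −1.04 and −1.50. Then 2 peaks near the 8 genes were left in each WT library and 6, 3 and 3 in TPdh-/- 1 to 3.

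For a single gene, the covered length was higher in both WT than in all 3 TPdh-/- libraries at 1 of the 8 members, *Tox*, where 28.1% of 14609 coding genes with a peak had this order. The reverse order held for 0 members and for 0.0685% of those genes. At *Tox*, peaks covered 11.0 and 1.91 kb in WT 1 and 2 and 0, 1.36 and 1.73 kb in TPdh-/- 1 to 3. The means were 6.48 ± 6.45 kb (SD, n = 2) and 1.03 ± 0.91 kb (SD, n = 3). The 2-sided exact permutation test gave *Tox* a p of 0.20, the smallest that 2 libraries against 3 allow, and 0.710 after Benjamini-Hochberg adjustment over the 14609 genes. WT 2 exceeded TPdh-/- 3 only narrowly, and the order was lost where peaks needed a −log10 q of at least 2.

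The other 7 genes had overlapping groups. At *Stat4*, peaks covered 8.96 and 3.26 kb in WT 1 and 2 and 3.81, 0 and 7.45 kb in TPdh-/- 1 to 3, and at *Bhlhe40* 5.41 and 2.35 kb against 1.70, 1.87 and 2.92 kb. Lengths at *Tbx21* were 3.62 and 1.54 kb against 1.26, 0 and 2.50 kb, and at *Prdm1* 2.33 and 1.32 kb against 0.57, 0 and 1.55 kb. At these 4 genes WT 2 lay inside the range of the TPdh-/- libraries. At *Hopx*, lengths were 6.48 and 0 kb against 0.53, 1.60 and 1.39 kb, at *Zeb2* 3.12 and 0 kb against 0, 1.26 and 0 kb, and at *Id2* 1.10 and 0 kb against 0, 0 and 0.60 kb. WT 1 had the most covered length at all 8 genes, as the plot of covered length shows. For these 7 genes the exact permutation p ran from 0.40 to 0.80 and the adjusted p from 0.717 to 0.860.

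**Figure D4:**
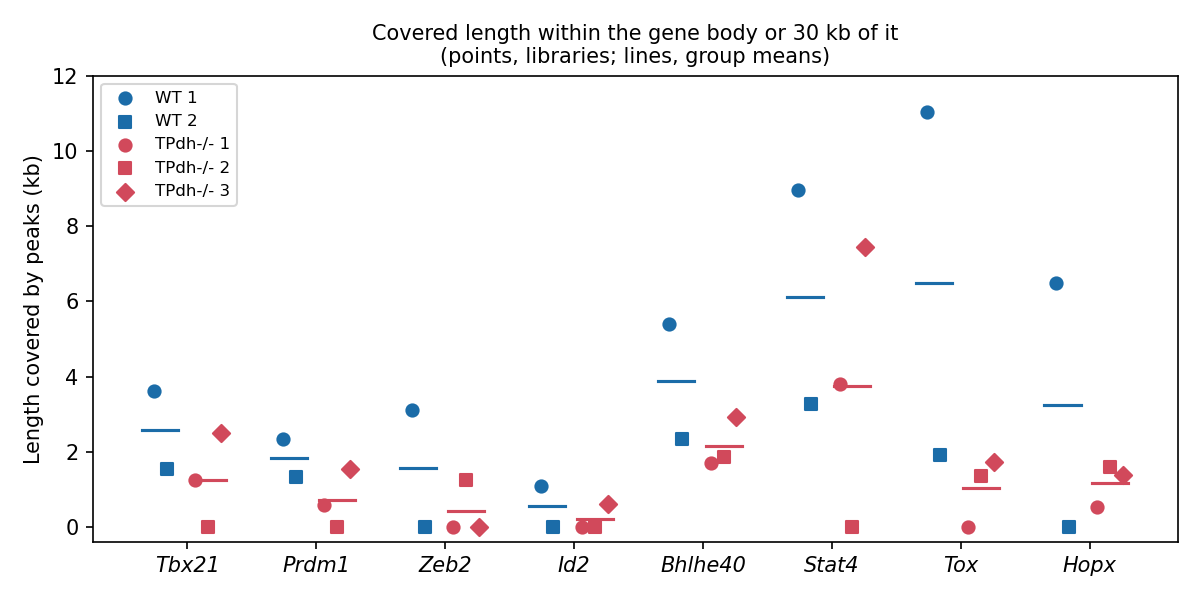
Length covered by peaks (kb, y axis) within the gene body or 30 kb of it for each gene, with a point for each library (WT blue, TPdh-/- red) and a line at the mean of each group. WT 1 is the highest point at all 8 genes, and WT 2 lies above all 3 TPdh-/- libraries at *Tox* alone.

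Sites in both WT and no TPdh-/- library numbered 3 of 30, the *Stat4* site at 112.5 kb and the pair of *Tox* introns, where 6.29% of regions near coding genes had this pattern. Each of the 3 had at least 1 peak with a −log10 q under 2, and 0 were left where peaks needed a −log10 q of at least 2. The only 2 sites with no WT peak were single-library sites, of *Zeb2* in TPdh-/- 2 and of *Id2* in TPdh-/- 3. Without TPdh-/- 3 the count rose to 6 sites, and without WT 2 it was 13.

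Of 23 related genes, 5 had a promoter peak in all 5 libraries and 9 in none. Among 7 paralogs and antagonists, 2 had one in all 5. *Bcl6*, the repressor that opposes BLIMP-1, stood at percentiles 85.7 and 85.1 in WT 1 and 2 and 44.2, 96.5 and 61.8 in TPdh-/- 1 to 3. *Zeb1*, the paralog of *Zeb2*, stood at 79.3 and 93.3 and at 51.9, 41.9 and 63.7. In the 2 libraries where *Zeb2* had a promoter peak, WT 1 and TPdh-/- 2, that of *Zeb1* stood higher. In WT 1, where *Prdm1* had its promoter peak at percentile 60.2, that of *Bcl6* stood higher. *Bhlhe41* and *Tox2*, paralogs of *Bhlhe40* and *Tox*, had none.

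Among 5 partner factors, *Batf* had a promoter peak in all 5 libraries (percentiles 87.3 and 72.0 in WT, 67.5, 57.1 and 65.2 in TPdh-/-), and *Runx3* and *Nr4a1* in none. Of the 4 genes of the IL-12 receptor and its kinases, upstream of STAT4, 0 had one in all 5, and *Il12rb1* and *Tyk2* had none. Of 7 effector genes downstream, the cytotoxic genes *Gzmb* (73.6 and 54.2 in WT, 40.6, 79.5 and 54.1 in TPdh-/-) and *Prf1* (93.8 and 87.4, against 76.8, 77.8 and 81.2) had one in all 5, and *Klrg1*, *Cx3cr1* and *S1pr5* had none. Covered length was higher in both WT than in all 3 TPdh-/- libraries for 10 of the 23 related genes and lower for 0. By list these were 1 of 7 paralogs and antagonists, 3 of 5 partners, 2 of 4 genes of the IL-12 receptor and its kinases and 4 of 7 effector genes. The 28.1% given above is a share of coding genes with a peak in their window, which *Bhlhe41* lacked in all 5 libraries, so the denominators are not alike.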

How the data were processed

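ChIPseq of acetylated histones in TM cells was analysed from 5 deposited lists of broad peaks, 2 of WT and 3 of TPdh-/- cells, grouped by their labels. The authors checked reads with FastQC 0.11.9, aligned them to GRCm38 with BWA-mem 0.7.17, kept unique reads and removed blacklisted regions with SAMtools 1.15.1, and called broad peaks with MACS2 2.2.6 in each library separately. The submitters' processing notes also name R 4.1.0, DiffBind 3.2 and ChIPseeker 1.28.3. No input control is named in the sources used here. The deposited fold enrichment of each peak is a ratio to the background MACS2 estimated, and the authors' significance is given as −log10 of the p-value and of the q-value. Read counts are not in the lists, so depth is unknown, no counting interval is given and the DiffBind comparison was not repeated.

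Peaks were taken within a gene body or 30 kb of it, by the GENCODE annotation of GRCm38 (141730 transcripts of 55413 genes). A promoter was within 3000 bp of any annotated transcript start, and peaks of different libraries formed 1 site where they shared at least 1 bp. A peak was ranked by −log10 q in its own list, since a lower threshold or deeper library lengthens a list and moves fold and rank. Covered length per gene was compared by an exact permutation test over libraries (10 ways, 2-sided) with Benjamini-Hochberg adjustment over 14609 genes. No p was computed over the 8 genes together. The 8 genes were all named. Of the related genes, those with a promoter peak in all libraries or in none were named, and others of the lists were counted. Some items, among them 1 site near *Stat4*, are not reported here. Genes, lists and comparisons were chosen with earlier results of these data known. The alternatives tried were stricter peak lists (−log10 q from 2 or from 5), every list reduced to the length of the shortest, a flank of 10 kb, promoters within 1000 bp, an overlap of 50%, leaving out each library, a replicate block and, chosen after seeing the data, the 5′ end of the gene as its only promoter. Python 3.11.15, numpy 2.4.6, pandas 2.3.3 and matplotlib 3.10.9 were used, and the counting was tested on simulated data.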

Additional observations from a re-analysis of the deposited data

How the results depend on the processing

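The direction of the comparison between groups depended on list length. With every list reduced to the length of the shortest, the WT minus TPdh-/- difference turned to −0.92 for log2 peak number, −1.04 for log2 covered length and −1.50 for members with a promoter peak, and 0 sites were kept in every library, 0 were in both WT alone, and 0 members had more covered length in both WT. The difference in covered length then also turned at *Tbx21* (−0.17 kb), *Prdm1* (−0.19), *Zeb2* (−0.21), *Bhlhe40* (−1.63), *Stat4* (−0.28) and *Tox* (−0.80). With a −log10 q of at least 2, sites in both WT alone and members with more covered length in both WT each fell to 0. With at least 5, these were 0 as well, 0 sites were kept in every library, and log2 peak number and covered length gave no value because 4 lists had no peak near the 8 genes. Leaving out 1 library at a time, the difference in members with a promoter peak ran from −1.0 to 4.0, kept sites from 1 to 5, sites in both WT alone from 3 to 13 and members with more covered length in both WT from 1 to 8. The covered length difference ran from −0.42 to 2.70 kb at *Zeb2*, −0.20 to 0.90 at *Id2*, −0.49 to 5.20 at *Stat4* and −1.17 to 5.31 at *Hopx*, each negative without WT 1. The cause was not tested.

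The replicate block, pairing WT 1 with TPdh-/- 1 and WT 2 with TPdh-/- 2 and leaving out TPdh-/- 3, gave 6 sites in both WT alone and 4 members with more covered length in both WT, the same counts as without TPdh-/- 3. The deviations of same-numbered libraries from their group means correlated at r = −0.28 and 0.30 over 14609 genes. With 2 WT libraries the WT deviations are mirror images of each other, so these values cannot decide whether the numbers pair the libraries. A flank of 10 kb, promoters within 1000 bp or at the 5′ end alone and an overlap of 50% turned no direction, but with the 5′ end alone the difference in members with a promoter peak was 0.50, and with 10 kb the difference at *Tbx21* was 0 kb, since its peaks lie farther out. With 2 libraries against 3, the smallest p that a single gene could reach was 0.2, and with depth unknown an unlisted peak is not shown to be absent.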
